A study of Mus musculus with 9 samples.

Results

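The genes described here were the calcitonin receptor and 9 genes of calcium and calcineurin signalling, namely Calcr, Camk1, Camk4, Ppp3ca, Ppp3cb, Ppp3r1, Rcan1, Itpr2, Stim1 and Orai1. They were chosen by name, and all 10 were found among the 28379 genes of the deposited table. Poly(A) RNA sequencing was performed on primary bone marrow-derived macrophages (BMDMs) of C57BL/6J mice in 3 groups of 3 libraries, all kept in M-CSF (20 ng/ml), the growth factor that sustains macrophages. Cells of the PBS group were grown without RANKL, the cytokine that drives macrophages towards osteoclasts. RANKL (100 ng/ml) was given alone to the RANKL group, while the RANKL + Vit D + K group had it combined with vitamin D (calcitriol, 1000 nM) and vitamin K (MK4, 20 μM per the labels, while the methods give another dose), each for 48 h. The comparisons asked which of the 10 genes changed when RANKL was given and which changed when the vitamins were added to it. The methods speak of pooled RNA and do not state how many mice or cultures lay behind the 3 libraries of a group, so the p-values measured only the spread between these libraries, which may be technical.

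Calcitonin binds its receptor on mature osteoclasts and stops them from resorbing bone, and Calcr is used as a marker of that stage. During osteoclast formation, calcium is released from the endoplasmic reticulum through inositol trisphosphate receptors such as Itpr2, and the emptied store is sensed by Stim1, which opens the plasma membrane channel Orai1. Calcium bound to calmodulin then activates the kinases Camk1 and Camk4 and the phosphatase calcineurin, built of a catalytic subunit (Ppp3ca, Ppp3cb or Ppp3cc) and the regulatory subunit Ppp3r1, and calcineurin sends NFAT factors, Nfatc1 among them, to the nucleus. Rcan1 binds calcineurin and restrains it, and its shorter transcript is a known NFAT target.

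Library totals lay between 65915112 and 68229647 counts. The deposited counts were estimates rounded up. A count of 4 occurred 2.22 times as often as its neighbours 3 and 5 did on average, and 1 read pair was taken to be worth 4 counts, an assumption on which the floor used below rests. The macrophage markers Adgre1, Csf1r and Cd68 had FPKM of 136 to 1056 in every library, whereas Mertk and Fcgr1 were at 31.3 to 32.5 and 20.6 to 27.6 in the PBS group and at 4.74 to 7.49 and 1.28 to 1.43 with the vitamins. Against RANKL, 4 of 6 macrophage markers were lower with the vitamins and 1 was higher. The summed FPKM (fragment counts scaled by transcript length and library size) of 6 macrophage markers was 2102 to 2251 in the PBS group, 1598 to 1966 in the RANKL group and 1296 to 1339 with the vitamins, and that of 7 osteoclast markers was 13.7 to 21.1, 472 to 996 and 51.7 to 85.6. The sum over 7 neutrophil markers was 10.8 to 123 with PBS, 10.7 to 141 with RANKL and 0.551 to 1.72 with the vitamins, where Ly6g, Elane, Mpo and Camp were listed at 0. In bulk RNA, fewer cells of a type and less RNA per cell cannot be told apart, and the part that these shifts had in the results was not tested. Within the RANKL + Vit D + K group, replicate 2 stood apart from replicates 1 and 3 on the first principal component (63.8 against 184 and 151), with the PBS and RANKL libraries between -84.7 and -35.9.

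Of the 10 genes, 9 passed the filter on low counts and were compared with the quasi-likelihood test of edgeR, with p-values adjusted by Benjamini-Hochberg over 17002 genes, with an adjusted p-value under 0.05 as the threshold. With RANKL alone, 1 gene was called, Calcr, which was at 0 in the PBS group and passed the filter through its RANKL libraries alone, so that its calls rest in part on that selection. Beside it, 3.61% of all genes tested were called for RANKL against PBS, 2.35% higher and 1.26% lower. With the vitamins added to RANKL, 5 of 9 changed against RANKL alone, with Ppp3cb and Ppp3r1 higher and Calcr, Camk1 and Orai1 lower, beside 33.7% of all genes (16.4% higher, 17.2% lower). Against the PBS group, the vitamin-treated cells differed in 6 of 9, with Ppp3cb, Ppp3r1 and Itpr2 higher and Camk1, Stim1 and Orai1 lower, beside 40.8% of all genes (19.8% higher, 21% lower). The share of all genes called depended on the filter. With at least 1 CPM in 3 libraries, which left out Calcr, 4 of 8 were called for the vitamins against RANKL, beside 43.2% of all genes. Against PBS, 6 of 8 were called under that filter, beside 51.7%. The median log2 fold change of the 9 genes was -0.10, -0.21 and 0.15 in the 3 comparisons, and that of all genes tested was -0.04 in each. The groups did not overlap in CPM (counts scaled by library size and TMM factor) for 5 of the 10 genes in each comparison, 2 higher and 3 lower. Among all genes tested, the groups did not overlap for 35.7% (15.7% higher, 19.9% lower) between RANKL and PBS, 46.8% (21.5% and 25.4%) between the vitamins and RANKL, and 53.1% (24.1% and 29%) between the vitamins and PBS. The share of all calls that were higher depended on the scaling. It was 65.1% for RANKL against PBS and 76.4% with total counts in place of TMM, and for the vitamins against RANKL it was 48.8% with TMM, 39.4% with total counts, and 38.2%, 34.7% and 38.1% with limma on log2(FPKM + 1), on log2(FPKM + 0.1) and on log2(FPKM + 1) of all genes above 0. Total counts moved the all-gene median of the log2 fold change from -0.04 to 0.08 for RANKL against PBS and from -0.04 to -0.18 for the vitamins against RANKL, without changing which of the 9 genes were called. The 3 comparisons share libraries, so their values are given side by side and are not independent of each other.

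**Figure D1:**
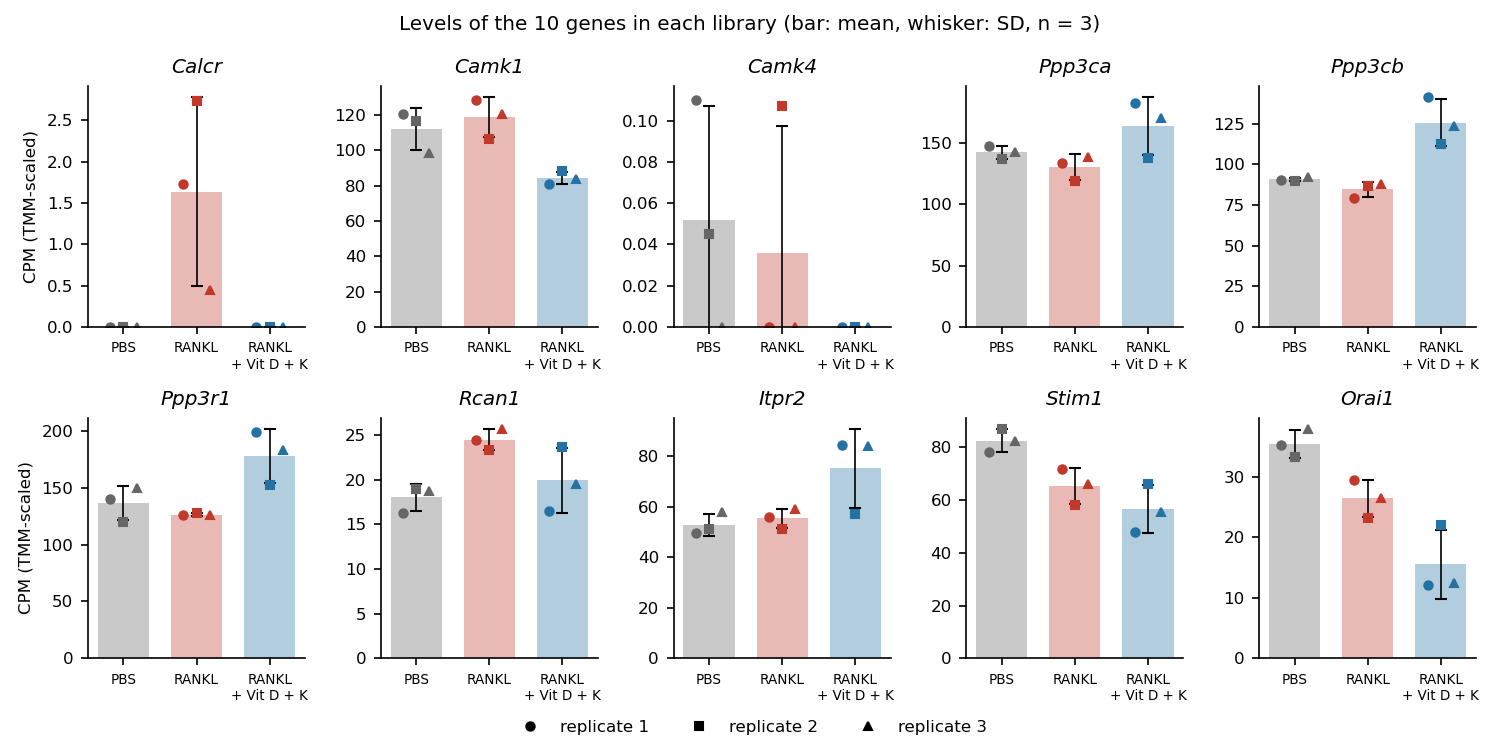
Levels of the 10 genes in CPM (vertical axis, from 0, with a scale of its own in each panel) in cells given PBS, RANKL or RANKL + Vit D + K, with 1 symbol per library, bars at the mean and whiskers of 1 SD (n = 3), which the axis clips at 0 for Camk4. Calcr was counted only in the 3 RANKL libraries, and the square of replicate 2 lay nearest the RANKL bars among the vitamin libraries in the 8 panels with counts there.

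Levels are comparable between genes only per length, that is in FPKM. In the PBS group the mean FPKM fell in the order Ppp3r1 (36.8), Camk1 (16.3), Orai1 (13.4), Ppp3ca (12.4), Ppp3cb (8.95), Stim1 (6.91), Rcan1 (5.07), Itpr2 (3.10) and Camk4 (0.0124), with Calcr at 0. Only Camk1 and Orai1, and Camk4 and Calcr, were neighbours whose libraries overlapped. In the RANKL group the order was Ppp3r1 (37.1), Camk1 (18.8), Ppp3ca (12.4), Orai1 (10.9), Ppp3cb (9.12), Rcan1 (7.51), Stim1 (5.95), Itpr2 (3.55), Calcr (0.402) and Camk4 (0.00981), and Ppp3ca and Orai1 overlapped. With the vitamins Ppp3r1 again came highest, at 46.9, and Ppp3ca (14.0) and Ppp3cb (12.2) lay above Camk1 at 12.1 in the mean, and the libraries of Camk1 overlapped those of both. Orai1 (5.92), Rcan1 (5.59), Stim1 (4.71) and Itpr2 (4.31) followed, with the libraries of each pair of neighbours overlapping.

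Calcr (ENSMUSG00000023964, chr6:3685680-3764714 on GRCm38, minus strand) encodes the calcitonin receptor. RefSeq lists 2 start sites for it, and the 240 bases that end 11 bases upstream of each are shown because the gene was counted in a single group and its transcripts can begin at either site. Capitals mark the NFAT core GGAAA, searched on both strands together with the cyclic AMP response element TGACGTCA and the AP-1 site TGANTCA.
Calcr, start inside the gene, chr6:3763634-3763873, minus strand: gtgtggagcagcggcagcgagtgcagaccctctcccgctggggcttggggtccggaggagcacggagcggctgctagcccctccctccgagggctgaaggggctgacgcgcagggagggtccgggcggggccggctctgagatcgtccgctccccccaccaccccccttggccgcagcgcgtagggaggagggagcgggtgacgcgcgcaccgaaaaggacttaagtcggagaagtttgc
Calcr, start at the outer end, chr6:3764724-3764963, minus strand: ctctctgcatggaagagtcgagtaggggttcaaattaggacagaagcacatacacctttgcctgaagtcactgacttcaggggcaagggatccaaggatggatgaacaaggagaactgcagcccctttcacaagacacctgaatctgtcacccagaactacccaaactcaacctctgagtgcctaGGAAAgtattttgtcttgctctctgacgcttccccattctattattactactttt
The inner window held none of the 3 motifs, and the outer one held 1 match to the NFAT core, which was present in 54.06% of 32817 such windows of all genes. A match is no evidence of binding.

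Calcr was counted at 0 in all 3 PBS libraries and all 3 vitamin libraries. In the RANKL group it had 120, 204 and 32 counts, or FPKM of 0.409, 0.696 and 0.102 (0.402 ± 0.297, SD, n = 3), which placed the mean above 53.5% of all genes. The libraries of the RANKL group lay above those of both other groups, with a spread between them of several-fold. Against a floor of 3 read pairs, taken as 12 counts in each library, the RANKL mean was at least 8.82-fold higher than PBS and at least 8.77-fold higher than RANKL + Vit D + K, and the lowest RANKL library was at least 2.42-fold and at least 2.41-fold higher. Calcr passed the low-count filter only through the group where it was high, so it had to differ and its p-values add little to the counts. They were adjusted p = 0.0350 (edgeR) for RANKL against PBS and adjusted p = 0.00722 for the vitamins against RANKL. The call against PBS held in 6 of 15 alternatives that tested the gene (adjusted p = 4.09e-07 to 0.164) and was lost without any 1 of PBS replicates 1, 2 and 3 or RANKL replicates 1 and 2 (adjusted p = 0.0700 to 0.125), while the call against RANKL held in 14 of 15.

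The RANKL replicates ranked 3, 1, 2 from low to high Calcr, and all 7 osteoclast markers, 6 of 7 neutrophil markers, 2 of 3 T and NK cell markers and 1 of 6 macrophage markers ranked them the same way, and in each of the other marker lists at most 1 did. The T cell gene Trac was listed at 0 in the PBS and vitamin libraries, as Calcr was, and at FPKM of 0, 0.152 and 0.435 in RANKL replicates 3, 1 and 2. The other genes of its list differed. Nkg7 was above 0 only in RANKL replicate 2 (0.0424). Klrb1c was at 0 in the PBS libraries but at 0.0943, 0.0165 and 0.0319 in vitamin replicates 1 to 3. In RANKL replicates 3, 1 and 2 it was at 0.0453, 0.0924 and 0.1025. Acp5, the tartrate-resistant acid phosphatase, had FPKM of 161, 223 and 271 in that order, and Oscar, a collagen receptor of osteoclasts, had 2.12, 4.42 and 7.77. With the vitamins, Oscar was listed at 0, 0.0630 and 0 in replicates 1 to 3. The 5 genes whose log2 CPM was most like that of Calcr over the 9 libraries were Slmapos2 (r = 0.999), the T cell surface gene Cd5 (0.996), D630003M21Rik (0.994), Ido2 (0.992) and Tdgf1-ps1 (0.992), a description over libraries that share their depth and scaling. Each of them was at 0 in the PBS and vitamin libraries, as Calcr was. A high r was largely fixed by that shared pattern, and only the RANKL libraries could set such genes apart. These libraries held 11 to 56 counts of Slmapos2, 43 to 112 of Cd5, 43 to 98 of D630003M21Rik, 106 to 197 of Ido2 and 106 to 212 of Tdgf1-ps1. The last is named as a pseudogene, so its counts may include reads of its parent gene.

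Camk1 (ENSMUSG00000030272, chr6:113334124-113343984, minus strand) encodes calcium/calmodulin-dependent kinase I. Its CPM was 121, 117 and 98.6 in the PBS libraries, 129, 107 and 121 under RANKL and 81.1, 88.2 and 83.7 with the vitamins. The vitamin libraries lay below all others, and those of PBS and RANKL overlapped. With the vitamins Camk1 fell by 0.49 on the log2 scale against RANKL (SE 0.117, adjusted p = 0.0124, edgeR) and by 0.41 against PBS (SE 0.117, adjusted p = 0.0211), and between RANKL and PBS the difference was 0.08 (95% interval -0.18 to 0.35, adjusted p = 0.773). The call against RANKL was lost without RANKL replicate 1 (adjusted p = 0.0591), and the call against PBS without PBS replicate 1 or 2 or vitamin replicate 1 or 3 (adjusted p = 0.0882 to 0.121) or with limma on log2(FPKM + 0.1) (0.0503). Camk1 shares exon bases with Ogg1, a DNA repair gene on the other strand with a mean FPKM of 2.76 to 3.01 in the 3 groups, and the strand setting of the counting was not given in the sources used here. Camk4 (ENSMUSG00000038128), the related kinase IV, had 7, 3 and 0 counts in the PBS libraries, 0, 8 and 0 under RANKL and 0 in all vitamin libraries. All of these lay under the floor of 12 counts, so a difference was not detectable at this depth. As a share of the summed FPKM of Camk1, Camk1d and Camk4, Camk1 made up 41.7% ± 3.3 in the PBS group, 48.5% ± 1.52 in the RANKL group and 54.7% ± 2.84 with the vitamins (SD, n = 3). The 3 groups did not overlap, with an exact 2-sided permutation p of 0.1 for each pair, the smallest that 3 against 3 libraries allow. Against RANKL, Camk1d fell by 0.85 on the log2 scale with the vitamins (edgeR, adjusted p = 0.00325), more than Camk1 did, in a difference between the genes that was not tested.

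Ppp3ca (ENSMUSG00000028161, chr3:136670124-136937727, plus strand) and Ppp3cb (ENSMUSG00000021816, chr14:20499364-20546573, minus strand) encode the alpha and beta catalytic subunits of calcineurin, and Ppp3r1 (ENSMUSG00000033953, chr11:17159263-17200375, plus strand) encodes its calcium-binding regulatory subunit. The CPM of Ppp3cb was 90.4, 89.7 and 92.0 in the PBS libraries, 79.6, 86.6 and 87.8 under RANKL and 141, 112 and 124 with the vitamins. All vitamin libraries lay above all others. Ppp3cb rose by 0.57 against RANKL (SE 0.109, adjusted p = 0.00520, edgeR log2 fold change) and by 0.47 against PBS (SE 0.108, adjusted p = 0.00855), and both calls held in all 17 alternatives. The RANKL libraries lay below those of PBS in CPM but overlapped them in FPKM, and that difference of -0.10 did not pass the test (adjusted p = 0.694) and turned positive in 4 alternatives.

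The CPM of Ppp3r1 was 140, 120 and 150 in the PBS libraries, 126, 128 and 126 under RANKL and 199, 152 and 183 with the vitamins. The lowest vitamin library, replicate 2, lay just above the highest PBS library. Ppp3r1 rose by 0.50 against RANKL (SE 0.127, adjusted p = 0.0169) and by 0.38 against PBS (SE 0.127, adjusted p = 0.0390). The call against RANKL was lost without RANKL replicate 1 or 3 or vitamin replicate 1 or 3 (adjusted p = 0.0543 to 0.0620) or with limma on log2(FPKM + 0.1) (0.0641), and the call against PBS without PBS replicate 1 or 2 or vitamin replicate 1 or 3 (adjusted p = 0.0619 to 0.0850) or with only the 2 groups compared (0.0813). Ppp3r1 shares exon bases with Wdr92 on the same strand, whose mean FPKM was 3.20, 4.46 and 4.03 in the PBS, RANKL and vitamin groups.

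The CPM of Ppp3ca was 148, 137 and 143 in the PBS libraries, 134, 119 and 139 under RANKL and 183, 138 and 171 with the vitamins. In CPM, vitamin replicate 2 lay among the RANKL libraries while replicates 1 and 3 lay above them. In FPKM, all 3 vitamin libraries (13.0 to 14.6) lay above those of RANKL (11.9 to 12.7) and PBS (12.2 to 12.8). The difference from RANKL was 0.33 (95% interval 0.05 to 0.61) and did not pass the test (adjusted p = 0.0705), and without vitamin replicate 2 it was 0.44 with adjusted p = 0.00359. Against PBS the difference of 0.20 (adjusted p = 0.225) became 0.31 without that library (adjusted p = 0.0174).

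The shares of the 3 catalytic genes in their summed FPKM were compared between the groups, a comparison of transcripts in which 3 against 3 libraries cannot give an exact p below 0.1. Ppp3ca made up 53.3%, 51.9% and 51.6% of the summed FPKM of Ppp3ca, Ppp3cb and Ppp3cc in the PBS libraries, 51.5%, 48.3% and 49.9% under RANKL and 41.4%, 41.3% and 41.5% with the vitamins. All vitamin libraries lay together and below the others, replicate 2 included. Ppp3cb held 37.7% ± 0.803, 36.8% ± 2.74 and 36.1% ± 2.07 of the sum, with overlapping groups. The remainder was Ppp3cc, the gamma subunit, at 10.0% ± 0.547, 13.3% ± 1.36 and 22.5% ± 1.97 (SD, n = 3), and its groups did not overlap (exact permutation p of 0.1 for each pair). Ppp3cc itself rose by 1.35 on the log2 scale against RANKL (adjusted p = 0.00177, edgeR). The ratio of Ppp3r1 to the 3 catalytic genes was 1.55 ± 0.134, 1.498 ± 0.104 and 1.39 ± 0.0202, and the groups overlapped.

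**Figure D2:**
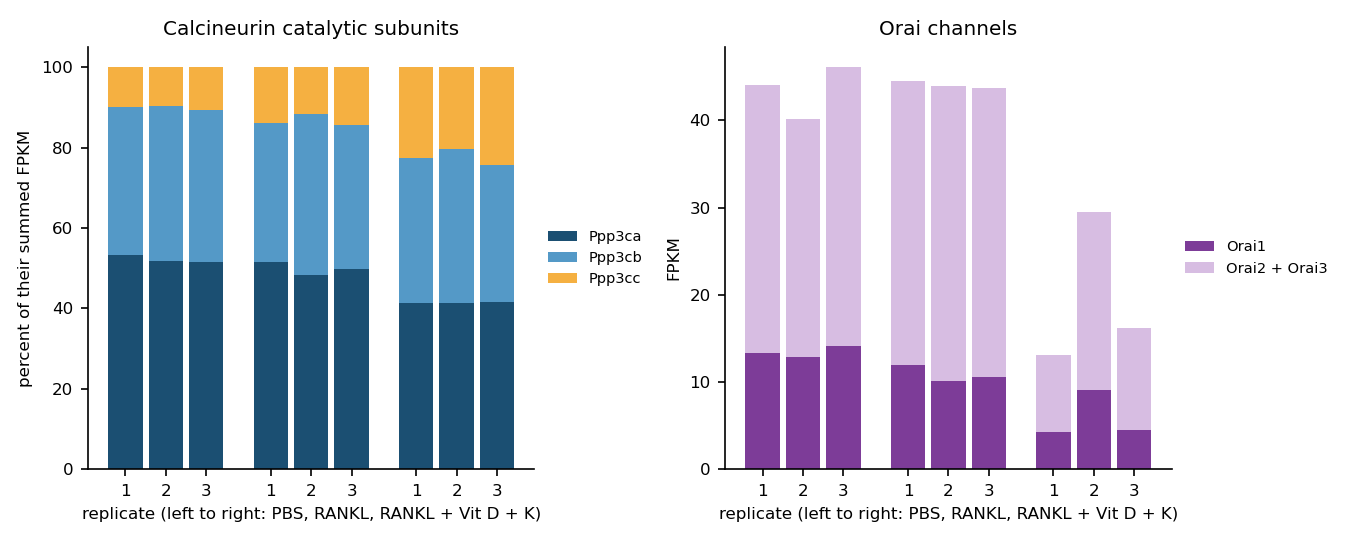
Left, percent of the summed FPKM of the 3 calcineurin catalytic genes held by each, per library. Right, FPKM of Orai1 and of Orai2 and Orai3 together, per library, with replicates 1 to 3 of the PBS, RANKL and RANKL + Vit D + K groups from left to right. Ppp3ca held 41.3% to 41.5% in the vitamin libraries against 48.3% to 53.3% elsewhere, and the Orai sum fell from above 40 in the PBS and RANKL libraries to 13.1 to 29.5.

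Rcan1 (ENSMUSG00000022951, chr16:92391953-92470867, minus strand) encodes the regulator of calcineurin and has an outer and an inner start site in RefSeq. The 240 bases upstream of each are shown because the transcript from the inner start is the one known to respond to NFAT, and the gene-level table cannot separate the transcripts. Capitals mark matches to the 3 motifs on either strand.
Rcan1, outer start, chr16:92466180-92466419, minus strand: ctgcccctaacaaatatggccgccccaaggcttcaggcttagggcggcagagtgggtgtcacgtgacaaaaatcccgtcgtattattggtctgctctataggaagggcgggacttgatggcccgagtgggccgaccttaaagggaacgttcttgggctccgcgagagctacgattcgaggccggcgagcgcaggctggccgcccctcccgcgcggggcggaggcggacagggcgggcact
Rcan1, inner start, chr16:92400089-92400328, minus strand: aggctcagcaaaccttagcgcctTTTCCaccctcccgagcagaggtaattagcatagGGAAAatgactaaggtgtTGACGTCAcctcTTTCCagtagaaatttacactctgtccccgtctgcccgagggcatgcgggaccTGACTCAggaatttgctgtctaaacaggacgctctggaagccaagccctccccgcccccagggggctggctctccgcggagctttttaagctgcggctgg
The outer window held no match. The inner window held 3 matches to the NFAT core, 1 to the cyclic AMP response element and 1 to the AP-1 site, none overlapping another. Of the other members with a window, Ppp3cb also held 3 NFAT cores, and Orai1, Camk1, Itpr2, Stim1 and Ppp3r1 held none of the 3 motifs. Windows with 3 or more NFAT cores made up 5.78% of all 32817, and 1.44% held the cyclic AMP element and 6.59% the AP-1 site.

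The CPM of Rcan1 was 16.2, 19.0 and 18.8 in the PBS libraries, 24.4, 23.4 and 25.7 under RANKL and 16.5, 23.7 and 19.6 with the vitamins. The RANKL libraries lay above all PBS libraries. In CPM, vitamin replicate 2 lay among the RANKL libraries while replicates 1 and 3 lay within or next to the PBS range. In FPKM, vitamin replicate 2 (7.24) lay below the RANKL libraries (7.35 to 7.62). The difference of RANKL from PBS was 0.44 (95% interval 0.09 to 0.80) and did not pass the test over all genes (adjusted p = 0.165), although it did when the 2 groups were fitted alone (adjusted p = 0.0334). The vitamins differed from RANKL by -0.30 (adjusted p = 0.170), and without vitamin replicate 2 by -0.44 (adjusted p = 0.0246).

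Itpr2 (ENSMUSG00000030287, chr6:146108299-146502178, minus strand) encodes the type 2 inositol trisphosphate receptor of the endoplasmic reticulum. Its CPM was 49.6, 51.2 and 57.9 in the PBS libraries, 56.1, 51.4 and 59.1 under RANKL and 84.4, 57.2 and 84.1 with the vitamins. Vitamin replicates 1 and 3 lay above all other libraries, and in CPM replicate 2 lay within the PBS and RANKL ranges. In FPKM, replicate 2 (3.64) lay within the RANKL range but above the PBS libraries (2.89 to 3.34). Itpr2 rose by 0.51 against PBS (SE 0.159, adjusted p = 0.0307), a call lost without PBS replicate 1 or 2 or vitamin replicate 1 or 3 (adjusted p = 0.0596 to 0.0723) or with only the 2 groups compared (0.0630). The difference of 0.44 from RANKL did not pass the test (adjusted p = 0.0601), but did so with DESeq2 (adjusted p = 0.0425) and, at 0.60, without vitamin replicate 2 (adjusted p = 0.00116). Its share of the summed FPKM of the 3 receptor genes was nevertheless lower with the vitamins, at 30.4% ± 7.46 against 42.4% ± 4.9 with PBS and 42.6% ± 6.81 with RANKL (SD, n = 3). The vitamin libraries overlapped those of RANKL in that share (exact permutation p = 0.2), and Itpr3 rose by 1.53 on the log2 scale (edgeR, adjusted p = 0.00652).

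Stim1 (ENSMUSG00000030987, chr7:102267806-102437319, plus strand) encodes the calcium sensor of the store. Its CPM was 78.0, 86.9 and 82.4 in the PBS libraries, 71.6, 58.1 and 66.2 under RANKL and 47.9, 65.9 and 55.5 with the vitamins. The RANKL libraries lay below the PBS libraries without passing the test (log2 fold change -0.34, 95% interval -0.65 to -0.02, adjusted p = 0.233). With the vitamins Stim1 fell by 0.55 against PBS (SE 0.138, adjusted p = 0.0128), a call lost without PBS replicate 2 or 3 or vitamin replicate 1 or 3 (adjusted p = 0.0588 to 0.0664). Against RANKL the difference was -0.21 (adjusted p = 0.267) with overlapping libraries, and without vitamin replicate 2 it was -0.34 (adjusted p = 0.0398).

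Orai1 (ENSMUSG00000049686, chr5:123015074-123030456, plus strand) encodes the pore of the store-operated channel, and among the 8 genes counted in every group it differed most between the vitamins and each of the other groups. Its CPM was 35.3, 33.2 and 37.9 in the PBS libraries, 29.4, 23.3 and 26.6 under RANKL and 12.1, 22.0 and 12.4 with the vitamins. The 3 groups did not overlap, with vitamin replicate 2 just below the lowest RANKL library. The difference of RANKL from PBS was -0.42 (95% interval -0.94 to 0.09, adjusted p = 0.371). With the vitamins Orai1 fell by 1.19 against PBS (SE 0.231, adjusted p = 0.00395), which held in all 17 alternatives. It fell by 0.77 against RANKL (SE 0.229, adjusted p = 0.0306), a call lost without RANKL replicate 1 or 3 or vitamin replicate 1 or 3 (adjusted p = 0.0787 to 0.120), with only the 2 groups compared (0.0767) or with limma on all genes above 0 (0.0515). Orai1 shares exon bases with Gm2479 on the other strand, which is not analysed here.

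The Orai genes moved together with the vitamins. The summed FPKM of Orai1, Orai2 and Orai3 was 44.0, 40.1 and 46.1 in the PBS libraries, 44.5, 44.0 and 43.7 under RANKL and 13.1, 29.5 and 16.2 with the vitamins. Orai2 fell by 1.42 on the log2 scale and Orai3 fell by 0.91 against RANKL (adjusted p = 0.00210 and 0.0163, edgeR). Within the sum, Orai1 made up 30.9% ± 1.0 in the PBS group, 24.7% ± 1.89 in the RANKL group and 30.2% ± 2.19 with the vitamins (SD, n = 3), and the RANKL libraries lay below both other groups (exact permutation p of 0.1 each). The ratio of Orai1 to Stim1 FPKM was 1.95 ± 0.194, 1.83 ± 0.027 and 1.22 ± 0.259, and the vitamin libraries lay below both other groups.

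**Figure D3:**
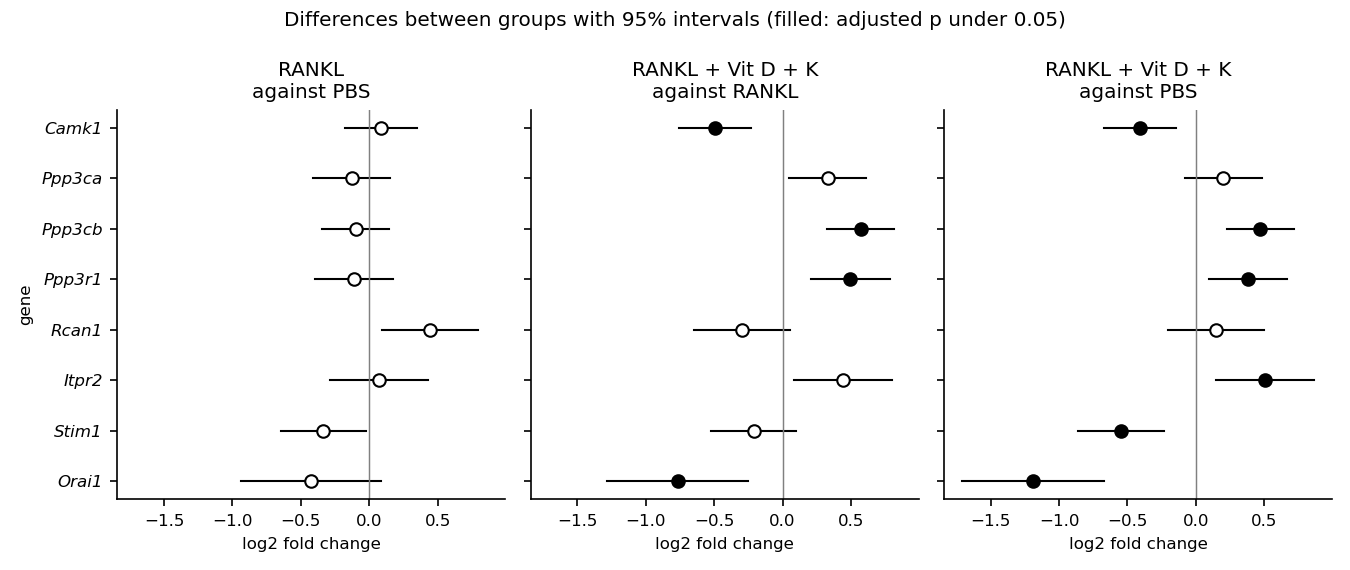
Log2 fold changes (horizontal axis) of the 8 genes counted in every group, with 95% intervals from the edgeR fit, for the 3 comparisons, where filled points passed an adjusted p-value of 0.05. No gene passed between RANKL and PBS, and with the vitamins Ppp3cb and Ppp3r1 lay right of 0 and Camk1 and Orai1 left of 0 against both other groups.

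The 8 genes with counts in the vitamin group shared the place of replicate 2 in CPM. For 8 of 8 it was the vitamin library nearest the RANKL mean in CPM. The same held for 59.8% of all 16762 genes tested with a count there. CPM depends on the TMM factors, which were 1.0645 for vitamin replicate 2 and 0.89066 and 0.9428 for replicates 1 and 3. In FPKM, replicate 3 was nearest for Ppp3cb, with 12.78, 12.01 and 11.7 in replicates 1 to 3 against a RANKL mean of 9.117. For the other genes replicate 2 stayed nearest in FPKM. Without vitamin replicate 2, all 9 genes tested passed the threshold against RANKL. Of these, Ppp3ca, Ppp3cb, Ppp3r1 and Itpr2 were higher and Calcr, Camk1, Rcan1, Stim1 and Orai1 lower. Among all genes tested, 46.4% were then called (8259 of 17806), in place of 33.7% (5725 of 17002). Orai1 then fell by 1.11 (adjusted p = 0.000221). The count of the 9 genes stayed at 5 without RANKL replicate 2. It was 2 without RANKL replicate 1, and 3 without RANKL replicate 3, vitamin replicate 1 or vitamin replicate 3, when 3199, 3507, 3749 and 3300 of all genes were called. Against PBS, the count of 6 became 7 without vitamin replicate 2, 3 without PBS replicate 1, 5 without PBS replicate 3, and 2 without PBS replicate 2, vitamin replicate 1 or vitamin replicate 3, when 8868, 4766, 4983, 5522, 5440 and 5020 of all genes were called in place of 6932. Replicate 2 also had the highest level of the vitamin group for 6 of 7 osteoclast markers, such as Acp5 (FPKM of 7.86 against 1.02 and 1.56), and the lowest for Atp6v0d2 (12.4 against 38.8 and 22.0), and the part this had in the values of the 8 genes was not tested.

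**Figure D4:**
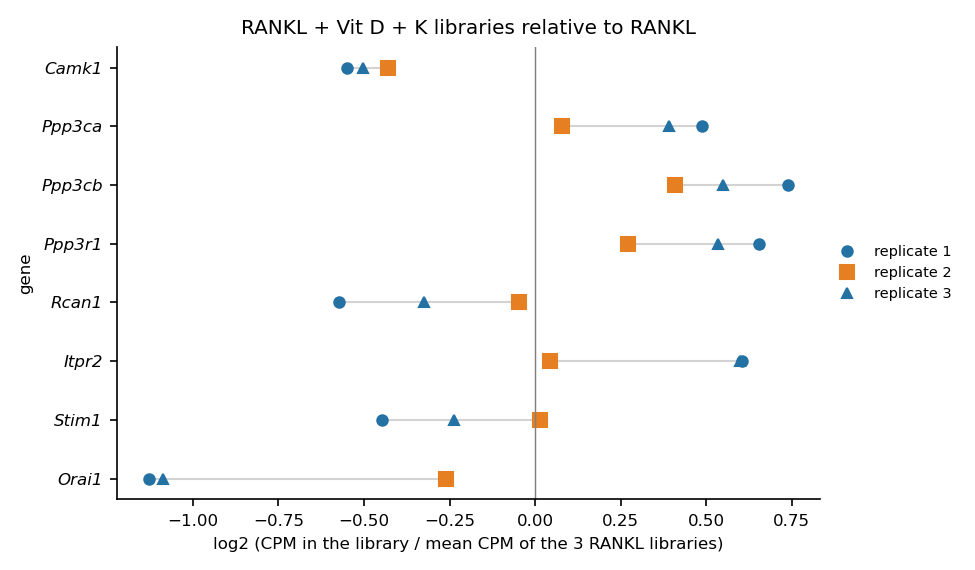
Log2 ratio of the CPM in each RANKL + Vit D + K library to the mean CPM of the 3 RANKL libraries (horizontal axis), for the 8 genes with counts there. Replicate 2 (orange square) was nearest 0 for each gene, and replicates 1 and 3 lay on one side of it.

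A list of 80 gene symbols for the rest of the pathway held 67 genes that were tested. The symbols Crac2ra and Efcab4b were among those not found in the deposited table. With RANKL, 4 of the 67 were higher and 1 was lower, and 62 did not pass, beside 3.61% called among all genes tested. Camk2a, a CaM kinase best known from neurons, rose by 3.81 in log2 fold change (adjusted p = 0.00187 by edgeR), the phospholipase Plcb4 by 1.54, the coactivator Ppargc1b by 1.51 and Nfatc1, the master factor of osteoclast formation, by 0.81, and the transcription factor Mef2c fell by 0.98. The number of calls in the list, 5, was 4 without PBS replicate 2 or RANKL replicate 3, 3 without PBS replicate 1, 2 without RANKL replicate 2, and 1 without PBS replicate 3 or RANKL replicate 1. The calls over all genes moved in the same fits from 614 to 276, 316, 138, 193, 126 and 170. No listed gene was called lower in any of these fits, so the call of Mef2c was lost. It was also lost with no filter on low counts, with limma on log2(FPKM + 0.1) and with total counts. With the vitamins against RANKL, 11 rose and 20 fell, beside 16.4% higher and 17.2% lower among all genes tested. Of those past the threshold, the largest increases were in Mcu, the mitochondrial calcium uniporter (2.30), Itpr3 (1.53), Ppp3cc (1.35), Camk2d (1.34) and Dyrk1a, a kinase that returns NFAT to the cytoplasm (1.32). The largest decreases past the threshold were in Ramp1, which pairs with the calcitonin receptor to form an amylin receptor (-2.82), Ppargc1b (-2.79), Cracr2b, a binding partner of Orai1 (-2.73), Camk2a (-2.68) and the calcium pump Atp2b4 (-2.22). Nfatc1, higher with RANKL alone, fell by 1.27 with the vitamins against RANKL (adjusted p = 0.00044, edgeR). Against PBS it was lower by 0.46 (adjusted p = 0.0171). By groups of the list, 4 of the 15 tested pumps, exchangers and other channels were higher and 4 lower, 3 and 2 of 8 NFAT factors and their kinases, 1 and 4 of 6 genes of store-operated entry, and 1 and 3 of 10 phospholipase C and inositol trisphosphate genes. Of the other CaM kinases 1 of 7 was higher and 3 lower, of the other calcineurin genes 1 of 9 was higher and 2 lower, and 1 of 2 receptor partners and 1 of 7 genes of calcium-responsive transcription were lower. The 3 calmodulin genes did not pass the test in any comparison. The split of 11 and 20 was 13 and 21 with DESeq2, 9 and 22 with total counts and 7 and 18 with only the 2 groups compared. Over all genes, 46.8%, 39.4% and 50.3% of the calls were higher in these fits. With limma the split was 8 and 23 on log2(FPKM + 1), 6 and 22 on log2(FPKM + 0.1) and 7 and 22 on all genes above 0. There, 38.2%, 34.7% and 38.1% of all calls were higher.

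Against the PBS group, 13 of the 67 were higher and 22 lower with the vitamins, beside 19.8% and 21% of all genes tested. Among the genes past the threshold, Ryr1 had the highest log2 fold change (4.24), from 0, 0 and 8 counts in the PBS libraries to 96, 14 and 41, so that value depends on counts under the floor and is no bound. Mcu (2.52), Itpr3 (1.74), Ppp3cc (1.71) and Camk2d (1.37) followed among them. Ramp1 (-4.74), Cracr2b (-3.09), Trpv4, a calcium-permeable channel (-2.54), Itpkb, which removes inositol trisphosphate (-2.14), and Atp2b4 (-2.06) were the lowest of those past the threshold. Ramp1 had a mean FPKM of 4.04 ± 0.465 in the PBS group, 1.14 ± 0.602 in the RANKL group and 0.144 ± 0.0923 with the vitamins (SD, n = 3), and its difference between RANKL and PBS did not pass the test (log2 fold change -1.92, adjusted p = 0.0875). Calcr itself was counted only in the RANKL group. The related gene Calcrl had a mean FPKM of 10.8, 14.2 and 11.2 in the PBS, RANKL and vitamin groups. It did not pass the test in any comparison. The median log2 fold change over the 67 genes was -0.10, -0.07 and -0.02 in the 3 comparisons, beside -0.04 for all genes tested in each.

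**Figure D5:**
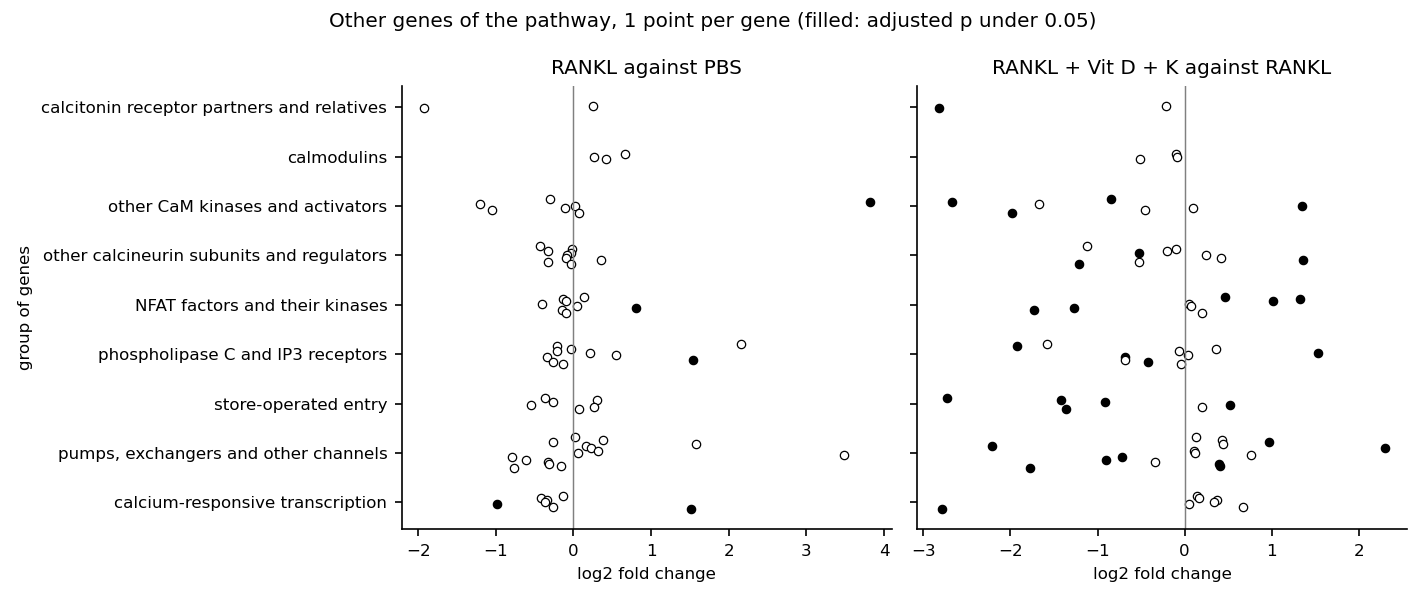
Log2 fold change (horizontal axis) of the 67 tested genes of the list by group of genes (vertical axis), for RANKL against PBS and RANKL + Vit D + K against RANKL, with filled points past an adjusted p-value of 0.05. There were 5 filled points on the left plot and 31 on the right, 11 of them right of 0.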

How the data were processed

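RNA sequencing of 9 BMDM libraries was analysed from the deposited table, which gives an estimated count and an FPKM value per gene and library. Per the processing notes, the authors used cutadapt 1.9, HISAT2 2.0.4, StringTie 1.3.4d and edgeR, and the notes name hg38 as the build, whereas the gene IDs and coordinates are those of mouse GRCm38 (28294 of 28379 IDs were in GENCODE M21). The deposited estimated counts were whole numbers, but in each library at least 93.3% of single-transcript genes with 1 to 20 counts equalled the estimate that the authors' FPKM gives, rounded up (tolerance 0.01 counts). The tests had been planned for read counts, and these estimates were used as deposited.

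Groups were taken from the labels. The main fit was edgeR 4.0.16 (quasi-likelihood, TMM, filterByExpr, all 9 libraries, no block) in R 4.3.3. Floors cover counting error only, since reads without molecular identifiers are not independent molecules. The exact permutation tests were 2-sided. DESeq2 1.42.0 and limma 3.58.1 were alternatives, as were other filters, scalings, pseudocounts and each library left out. The genes named were the 10 members, at most 5 pathway genes past the threshold in each direction and comparison, and the 5 genes most like Calcr by Pearson r. The members, gene lists and tests were chosen with earlier results of these data known. Statistical scripts were tested on simulated data. Promoter windows came from a RefSeq table on GRCm38.p6, in which 8 of the 10 genes were matched.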

Additional observations from a re-analysis of the deposited data

How the results depend on the processing

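The count of all genes called for RANKL against PBS was 614 and moved to 1699 with DESeq2 and 1736 with only the 2 groups compared, and with any 1 of the 6 libraries left out it ranged from 126 to 316. For the same comparison the number of the 9 tested genes called was 1. It was 0 with no filter on low counts, with at least 1 CPM in 3 libraries (which removed Calcr), with limma on log2(FPKM + 1) on tested genes or all genes above 0, and with counts divided by 4 (which also removed Calcr), it was 2 with only the 2 groups compared, and it ranged from 0 to 1 with 1 library left out. Apart from the CPM filter and the division by 4, which left Calcr untested, the cause was not tested. The pathway list gave 5 calls, 11 with DESeq2, 12 with only the 2 groups compared and 1 to 4 with 1 library left out. For the vitamins against RANKL, 5 of the 9 genes were called, 3 with limma on all genes above 0 and 2 to 9 with 1 library left out, when all genes called ranged from 3199 (without RANKL replicate 1) to 8259 (without vitamin replicate 2) and pathway genes from 21 to 41. Against PBS these ranges were 2 to 7 of the 9 genes, 4766 to 8868 of all genes and 27 to 43 pathway genes.

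Between RANKL and PBS, Ppp3cb (-0.0996) turned to 0.0221 with limma on log2(FPKM + 1) on tested genes or on all genes above 0, to 0.0240 on log2(FPKM + 0.1) and to 0.0293 with total counts. Ppp3r1 (-0.114) turned to 0.0165, 0.0170 and 0.0157 under the same alternatives, and with 1 library left out it ranged from -0.144 to 0.0125, above 0 only without PBS replicate 3. None of these values passed the test. Over all results and alternatives for single genes, 41 values lost a call, 10 gained one and 9 reversed, and the others kept their direction and side of the threshold.

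Same-numbered libraries correlated at 0.08, 0.17 and 0.13 in their deviations between RANKL and PBS and between -0.03 and 0.09 in the other comparisons, so the numbers were not taken to pair the samples. With the replicate block, 0 of the 9 genes were called for RANKL against PBS (Calcr at adjusted p = 0.0560, edgeR), 7 for the vitamins against RANKL, with Ppp3ca (0.0453) and Itpr2 (0.0454) added, and 6 against PBS, and all genes called were 825, 5873 and 7041. Between RANKL and PBS each library correlated best with its own number, a hint from the data and not from the design. The alternatives with total counts and with counts divided by 4, and those for the pathway list, were chosen after seeing the data. Low counts limit Calcr and Camk4: a difference under the floor of 12 counts was not detectable.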
